A study of Mus musculus with 8 samples.

Results

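The immunoglobulin, B cell and plasma cell genes of the liver were examined in aged obese mice with and without dietary docosahexaenoic acid (DHA). Of the 10 genes chosen for this set, all 10 were found among the 56884 genes of the deposited count tables, by their Ensembl identifiers. They were the immunoglobulin light chain genes Igkc and Iglc2, the heavy chain genes Ighm, Igha and Ighg2b, the assembly genes Jchain and Mzb1, and the B cell surface genes Cd79a, Cd79b and Ms4a1. They were chosen by their function, but with earlier results of these data known. Livers came from female C57BL/6J mice aged 18 months, all of them first given a lipid-rich diet (45% of energy from lipid) for 4 months. The DIO (diet-induced obese) group of 3 mice then stayed on that diet, with a tocopherol mix added to match the other diet. In the DIO + DHA group of 5 mice, 15% of the dietary lipid by weight was replaced by a fish oil concentrate of n-3 fatty acids holding 683.4 mg of DHA per gram. Each mouse gave 1 library of polyadenylated liver RNA taken after an overnight fast. Both groups were obese, and a lean group was not analysed here.

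B cells carry an immunoglobulin on their surface, and plasma cells, which arise from them, secrete it as antibody. Each antibody pairs heavy chains with light chains of the kappa or lambda kind. The heavy chain constant gene in use sets the isotype: IgM is made first, and class switching replaces it by IgG, IgA or IgE. IgM and IgA are joined into polymers by the J chain, and the liver receives blood and antibody from the gut, where IgA dominates. In a piece of whole liver these transcripts come from the few B lineage cells in the piece, and the tissue or blood that held those cells was not established. Fewer cells of a type and less RNA per cell cannot be told apart.

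The isotypes can be distinguished in short reads because their constant genes differ in sequence, and so do the ends of the proteins that they encode. The following stretches are the last 30 coding bases of the secreted heavy chains on the minus strand of chromosome 12 in GRCm39, and the capitals mark a cysteine codon. They are shown because this tail separates the isotypes that bind the J chain, IgM and IgA, from IgG. The tails of Ighm (chr12:113384487-113384516) and Igha (chr12:113222388-113222417) both had a cysteine codon at position 8 of 10, counting the stop codon as the last, whereas those of Ighg2b (chr12:113270009-113270038) and Ighg2c (chr12:113251009-113251038) had none.
Ighm tail: atgtctgacacaggcggcaccTGCtattga
Igha tail: atgtcagagggagatggcatcTGCtactga
Ighg2b tail: aagaccatctcccggtctccgggtaaatga
Ighg2c tail: aagaccatctcccggtctctgggtaaatga

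Ighg2b and Ighg2c encode the IgG2b and IgG2c subclasses, and their hinge exons, which differ in length, are also shown, again with cysteine codons in capitals. The hinge joins the antigen-binding arms to the rest of the antibody. The Ighg2b exon (chr12:113270881-113270946) had 66 bases with 4 cysteine codons, and the Ighg2c exon (chr12:113251883-113251945) had 63 bases with 3.
Ighg2b hinge: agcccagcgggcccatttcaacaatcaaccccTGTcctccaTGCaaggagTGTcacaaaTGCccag
Ighg2c hinge: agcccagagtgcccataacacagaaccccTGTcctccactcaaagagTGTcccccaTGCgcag

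The coding exons of the secreted forms of Ighg2b and Ighg2c were 85.6% identical. The identity was 87.6% in the first constant domain, 77.3% in the hinge, 94.2% in the second domain and 76.6% in the third. Over the same exons, Ighg2b was 48.0% identical to Ighm and 50.3% identical to Igha. The unbroken exon stretches of Ighg2b held 2217 windows of 80 bases, the length of the sequenced cDNA read. Of these, 9 (0.406%) occurred unchanged in another counted gene, in each case Ighg3. None occurred in Ighg2c, so that an error-free read of that length within such a stretch could be told apart between them. Windows across exon junctions were not examined.

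The libraries held between 1723800 and 5690347 counts assigned to genes, with a median of 4495644, and the shallowest was DIO replicate 1. Levels are given as CPM (assigned counts scaled to a common library total) with trimmed mean of M-values (TMM) normalisation, each with its SD over the libraries of a group, and p-values measure the spread between these mice. The constant genes together took 0.0259% ± 0.00230 (SD, n = 3) of all counts in the DIO group and 0.0230% ± 0.00144 (SD, n = 5) in the DIO + DHA group, so that counts limited most members. The libraries were enriched for the 3′ ends of transcripts, so the levels of the 10 genes were compared between groups and not ranked against each other.

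Of the members, 9 had a count in at least 1 library and 7 passed the filter on low counts and were tested. With edgeR, 1 of the 7, Ighg2b, was lower in the DIO + DHA group at an adjusted p under 0.05, none was higher and 6 did not pass the test. Over all 12412 genes tested, 7.28% were lower, 7.89% higher and 15.2% changed in either direction by the same rule. The share of tested members called, 14.3%, was thus close to that of all genes. By the study's own rule, a limma B statistic above 0, Ighg2b alone was called among the 7, with B = 14.0, beside 3.20% of all genes called lower. Ighg2b was also the single tested member whose libraries did not overlap between the groups. Over all tested genes, 8.88% were lower without overlap and 18.4% did not overlap in either direction. The median log2 fold change was −0.21 over the 7 members and 0.00 over all tested genes.

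**Figure D1:**
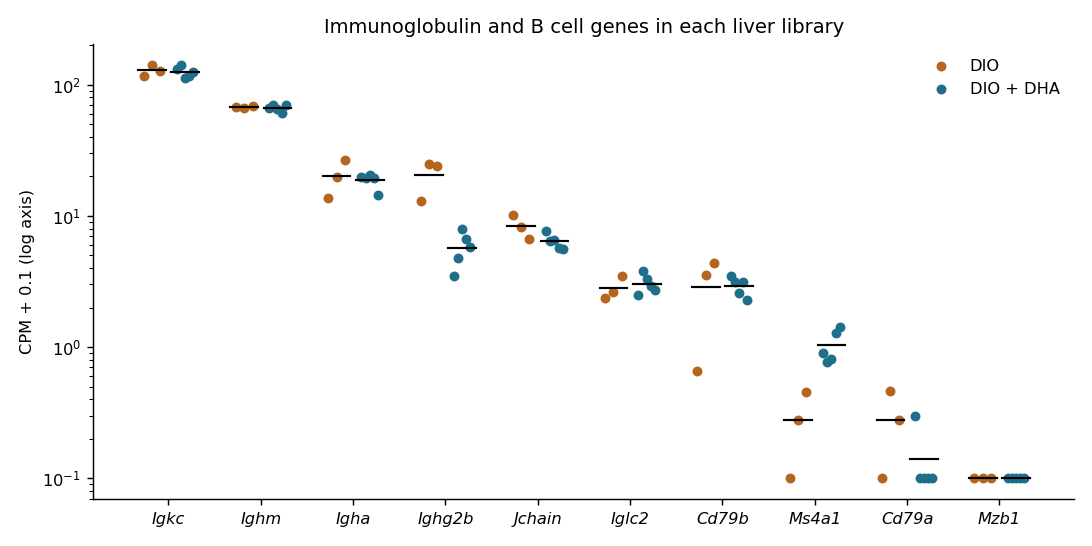
Level of each of the 10 genes, as CPM plus 0.1 on a log axis, in the 3 DIO and 5 DIO + DHA libraries. Points are libraries, lines are group means and points at the bottom are libraries with no count. The Ighg2b libraries of the groups do not overlap, with DIO from 12.9 to 24.9 CPM and DIO + DHA from 3.37 to 7.85 CPM, whereas Igkc and Ighm sit at nearly the same level in both groups.

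Ighg2b, the constant gene of the IgG2b heavy chain, stood at 12.9, 24.9 and 23.8 CPM in DIO replicates 1, 4 and 5. In DIO + DHA replicates 1, 2, 4, 5 and 6 it stood at 3.37, 4.69, 7.85, 6.56 and 5.68 CPM. The lowest DIO library was therefore above the highest DIO + DHA library, and the lowest DIO library was also the shallowest. These levels rest on 23, 138 and 134 counts in the DIO group and on 17, 14, 22, 28 and 26 counts in the DIO + DHA group. The means were 20.5 CPM ± 6.60 (SD, n = 3) with DIO and 5.63 CPM ± 1.71 (SD, n = 5) with DIO + DHA. The level fitted by edgeR was 4.01-fold lower with DHA, which is −2.00 on the log2 scale, with an SE of 0.20, a 95% interval from −2.40 to −1.60 and an adjusted p of 1.67e-11 with edgeR. The fold change kept this direction and stayed past the test when any library was left out, with log2 values from −2.15 to −1.83.

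Ighm and Igkc, the most deeply counted members, were the ones whose change could be bounded most closely. Ighm encodes the IgM heavy chain, which naive B cells and unswitched plasma cells use. It stood at 67.0, 66.2 and 68.3 CPM in the DIO libraries and at 66.5, 70.0, 65.3, 61.1 and 69.4 CPM in the DIO + DHA libraries. The groups overlapped, and the spread between libraries was narrow, the coefficients of variation of 1.62% (DIO) and 5.40% (DIO + DHA) being below the 6.76% and 6.36% that counting error alone would give. The log2 fold change was −0.02, with a 95% interval from −0.20 to 0.17 (adjusted p = 0.938 with edgeR). Igkc encodes the constant region of the kappa light chain, which most mouse antibodies carry. It stood at 117, 142 and 128 CPM in the DIO libraries and at 132, 141, 112, 117 and 125 CPM in the DIO + DHA libraries. Here too the groups overlapped, with a log2 fold change of −0.06 and an interval from −0.22 to 0.11 (adjusted p = 0.744 with edgeR).

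Igha encodes the heavy chain of IgA, the antibody of mucosal surfaces and bile. It stood at 13.5, 19.8 and 26.8 CPM in the DIO libraries and at 19.8, 19.4, 20.3, 19.4 and 14.4 CPM in the DIO + DHA libraries. The DIO libraries spanned all 5 DIO + DHA libraries. Their coefficient of variation was 33.2%, which includes differences between mice, where counting error alone would give 12.4%. The log2 fold change was −0.21, with an interval from −0.52 to 0.10 (adjusted p = 0.444 with edgeR). It turned to 0.06 without DIO replicate 5, the highest library. Iglc2, a constant gene of the lambda light chain, ranged from 2.25 to 3.37 CPM in the DIO libraries and from 2.38 to 3.69 CPM in the DIO + DHA libraries. Its change was 0.01 on the log2 scale, with an interval from −0.67 to 0.69.

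Jchain, whose product joins IgM and IgA into polymers, stood at 10.1, 8.11 and 6.57 CPM in the DIO libraries. In the DIO + DHA libraries it stood at 7.54, 6.37, 6.42, 5.62 and 5.46 CPM. The mean was lower in the DIO + DHA group, but the groups overlapped. The log2 fold change was −0.31, with an interval from −0.76 to 0.14 (adjusted p = 0.417 with edgeR). Mzb1 encodes a chaperone of B and plasma cells that helps to assemble immunoglobulin in the endoplasmic reticulum. It had no count in any library. The tables cannot be read as an absence of this transcript, and set no upper limit on its level. Of the exon bases of Mzb1, 57.2% are shared with the gene model Gm50318, including 459 of the 460 bases of its last exon, where 3′-enriched reads fall. Reads that overlap more than 1 gene were not counted, and Gm50318 also had 0 counts.

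The B cell surface members were near the limit of the depth. Cd79b, a signalling chain of the B cell receptor, stood at 0.56, 3.43 and 4.26 CPM in the DIO libraries. In the DIO + DHA libraries it stood at 3.37, 3.02, 2.50, 3.04 and 2.18 CPM. Its lowest value, in DIO replicate 1, was a single count, and the groups overlapped. The log2 fold change was −0.21, with an interval from −0.89 to 0.46 (adjusted p = 0.769 with edgeR), and it turned to 0.11 without DIO replicate 5. Cd79a, the partner chain of Cd79b, had 0, 2 and 1 counts in the DIO libraries and 1 count in all of the DIO + DHA libraries together, and was not tested. The ratio of its depth-scaled counts between the groups was 0.217, with a counting interval from 0.00413 to 2.703.

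Ms4a1 encodes CD20, a surface protein of B cells that plasma cells lack. It had 0, 1 and 2 counts in the DIO libraries and 4, 2, 2, 5 and 6 counts in the DIO + DHA libraries. Every DIO + DHA library was above every DIO library in CPM, from 0.67 to 1.31 against at most 0.35. Its 3 and 19 counts gave a depth-scaled ratio of 4.12, with a counting interval from 1.21 to 21.8 that covers counting error only. It did not pass the filter on low counts, and without that filter its adjusted p was 0.212 with edgeR.

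**Figure D2:**
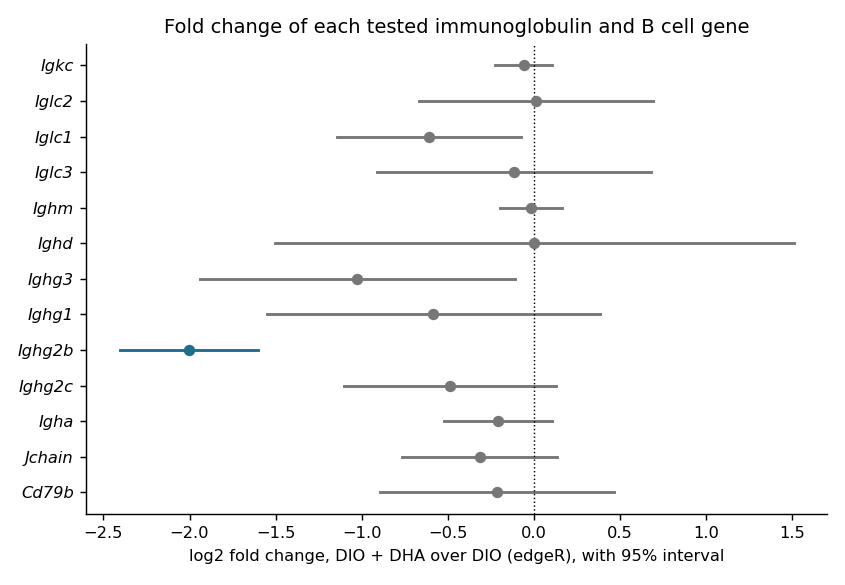
Log2 fold change of DIO + DHA over DIO for the 13 tested immunoglobulin and B cell genes, as points with 95% intervals that are not adjusted for the number of genes. The blue point, Ighg2b at −2.00, passed an adjusted p under 0.05, and the grey ones did not.

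The other constant genes of the immunoglobulin loci were examined beside the members. Of 8 such genes, 6 were tested and none passed at an adjusted p under 0.05 with edgeR, although Iglc1 and Ighg3 had an unadjusted p of 0.0268 and 0.0290. The remaining IgG subclasses had negative log2 fold changes: −0.48 for Ighg2c (adjusted p = 0.345), −0.58 for Ighg1 (adjusted p = 0.501) and −1.03 for Ighg3 (adjusted p = 0.135). Single libraries moved these values: Ighg3 was at −0.32 and Ighg2c at −0.26 without DIO replicate 5, and Ighg1 at −0.23 without DIO replicate 1 and −0.97 without DIO replicate 4. The Ighg2c level was 4.11 CPM ± 0.786 (SD, n = 3) with DIO and 3.04 CPM ± 0.836 (SD, n = 5) with DIO + DHA. The lambda genes Iglc1 and Iglc3 had log2 fold changes of −0.61 (adjusted p = 0.128) and −0.11 (adjusted p = 0.907). Of the exon bases of Iglc3, 20.6% overlap an antisense gene, 2010309G21Rik, and of those of Iglc2, 6.21% overlap Iglj2, so that reads there were not counted. Iglc1 passed the test, with an adjusted p of 0.0432, when DIO replicate 1 was left out, and was at −0.27 without DIO replicate 4. Ighd, the gene of the IgD of naive B cells, had 12 and 18 counts in the groups and a log2 fold change of 0.00. Ighe, for IgE, and Iglc4 had no count in any library.

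The makeup of the heavy chain transcripts was then compared within each library, which does not depend on how depth is scaled. These are shares of counts and not of antibody. IgG2b made up 12.7%, 21.04% and 18.2% of the heavy chain constant gene counts in the DIO libraries. In the DIO + DHA libraries it made up 3.50%, 4.68%, 7.83%, 7.07% and 5.94%. The shares did not overlap between the groups, although the exact Clopper-Pearson 95% intervals of the closest libraries did, at 8.23% to 18.5% for DIO replicate 1 and 4.97% to 11.6% for DIO + DHA replicate 4. IgG of all subclasses took 20.99% to 26.4% in the DIO group and 8.85% to 12.8% in the DIO + DHA group. The log2 ratio of IgG to other heavy chain counts differed by −1.35, with an exact two-sided permutation p of 0.0179, the smallest that 3 against 5 mice allow, and an adjusted p of 0.196 over the family of 11 sums and ratios.

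**Figure D3:**
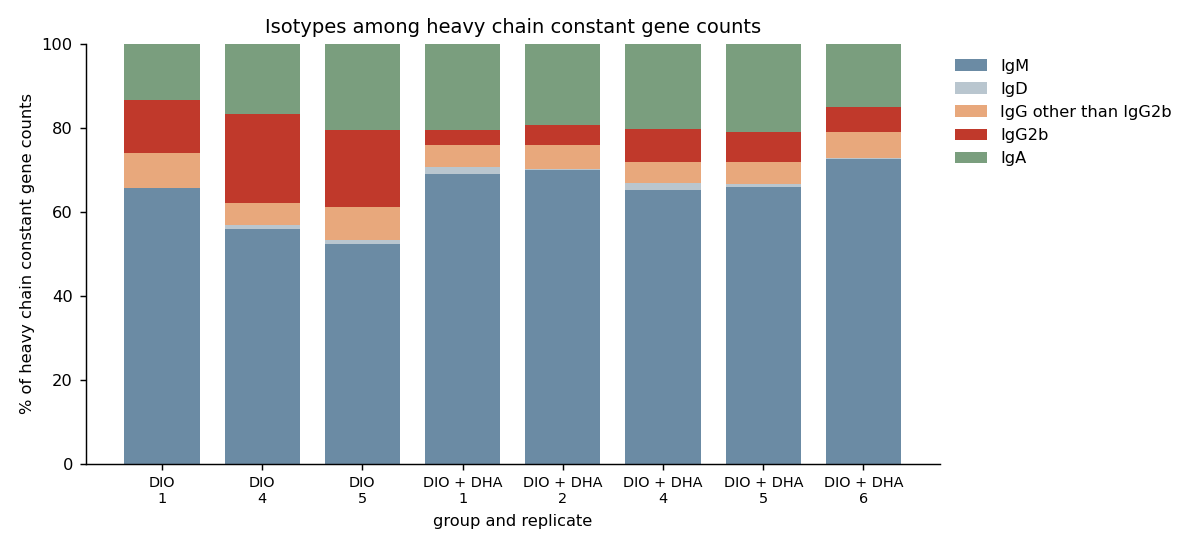
Share of each isotype among the heavy chain constant gene counts, in percent, with 1 bar for each library, labelled by group and replicate. The red part, IgG2b, spans 12.7% to 21.04% in the 3 DIO bars and 3.50% to 7.83% in the 5 DIO + DHA bars.

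IgG other than IgG2b made up 7.22% ± 1.63 (SD, n = 3) of heavy chain counts in the DIO group and 5.50% ± 0.449 (SD, n = 5) in the DIO + DHA group. Their summed level was 6.31 to 10.5 CPM in the DIO libraries and 4.92 to 5.90 CPM in the DIO + DHA libraries, so that every DIO + DHA library lay below every DIO library, on 14 to 59 counts each. This sum was not tested. Within IgG, IgG2b took 60.5% to 79.8% in the DIO libraries and 39.5% to 61.1% in the DIO + DHA libraries, ranges that met. IgM took 52.4% to 65.7% and 65.1% to 72.6%, with a difference in log2 ratio of 0.65 (exact permutation p = 0.0357, adjusted p = 0.196). Shares add up to the whole, so they are not independent of each other. The mean level of Ighm was 67.1 CPM with DIO and 66.5 CPM with DIO + DHA, and that of Ighg2b was 20.5 and 5.63 CPM. The cause of the difference in the IgM share was not tested. IgA took 13.3% to 20.5% and 15.1% to 20.96% (exact permutation p = 0.339).

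Kappa made up 92.2% ± 2.04 (SD, n = 3) of light chain constant counts in the DIO group and 92.9% ± 1.03 (SD, n = 5) in the DIO + DHA group (exact permutation p = 0.554). The log2 ratio of Jchain to constant gene counts differed by −0.23 (exact permutation p = 0.321), and by 0.0226 without DIO replicate 1. That of constant genes to the B cell surface genes Cd79a, Cd79b and Ms4a1, with 0.5 counts added to each part, differed by −0.76 (exact permutation p = 0.125, adjusted p = 0.262). DIO replicate 1 had 1 surface count, and without that library the difference was −0.0480 (exact permutation p = 0.667). The constant genes summed to 257 CPM ± 27.3 (SD, n = 3) with DIO and 232 CPM ± 12.4 (SD, n = 5) with DIO + DHA, a difference of −0.14 on the log2 scale (exact permutation p = 0.143). Without Ighg2b the sums were 236 ± 20.7 CPM and 226 ± 13.7 CPM. The variable segments, which are joined anew in each B cell clone, could not resolve clones at this depth. Of 218 such genes, 38 had a count, and together they had 76 counts in the 8 libraries beside 8007 of the constant genes. They summed to 1.77 CPM ± 0.505 (SD, n = 3) with DIO and 2.58 CPM ± 1.16 (SD, n = 5) with DIO + DHA, on 21 and 55 counts. The difference on the log2 scale was 0.39 (exact permutation p = 0.321). The commonest segment never exceeded 3 counts in a library. Thinned to 4 counts, a library held 3.29 ± 0.301 segments (SD, n = 3) with DIO and 3.71 ± 0.254 (SD, n = 5) with DIO + DHA (exact permutation p = 0.0714). Iglv1, with 14 counts in all, led in DIO replicate 5 and DIO + DHA replicate 4, Igkv5-39 in DIO replicate 1 and Igkv3-4 in DIO + DHA replicate 1, while segments tied in the other libraries.

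Lists of further genes of the B lineage and of its surroundings were counted in the same fit, and read against the 7.28% of all genes lower and 7.89% higher. In the B cell list of 35 genes, 18 were tested, 2 were lower, 3 were higher and the median log2 fold change was −0.08. Cd52, a surface protein that T cells and macrophages also carry, fell from 45.2 ± 6.05 to 26.6 ± 2.55 CPM (log2 fold change −0.81, adjusted p = 1.50e-07 with edgeR). Cd72, an inhibitory coreceptor of B cells, was lower at −1.62 (adjusted p = 0.0164 with edgeR). It passed the filter on low counts only through the DIO group, so its call was partly fixed by that filter. Ly6d and Ralgps2 were higher at 0.32 and 0.51, and Ebf1, a transcription factor of B cells that stromal and fat cells also express, at 1.16 (adjusted p = 0.0364).

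Several of these calls were lost when 1 library was left out. Ebf1 stood at 1.69 to 1.98 CPM in the DIO group and at 4.36, 1.68, 3.57, 2.34 and 7.86 CPM in the DIO + DHA group, and without DIO + DHA replicate 6 its log2 fold change was 0.73 (adjusted p = 0.246). Ralgps2 went to 0.31 (adjusted p = 0.386) without DIO replicate 5. Without DIO + DHA replicate 6, or without DIO replicate 4 or 5, no gene of the list was higher. Cd72 did not overlap between the groups, at 2.25 to 2.52 CPM and 0.234 to 1.59 CPM. Without DIO replicate 4 or 5 or DIO + DHA replicate 5 the Cd72 log2 fold change was −1.56, −1.64 and −1.37, with adjusted p of 0.0862, 0.0616 and 0.0542. The count of lower genes went from 2 to 4 without DIO replicate 1 or DIO + DHA replicate 6. Further B cell genes were at low counts and pointed both ways. Cd22 had 8 and 22 counts in the DIO and DIO + DHA groups, a depth-scaled ratio of 1.79 with a counting interval from 0.768 to 4.65. Pax5 had 1 and 8 counts, with an interval of the ratio from 0.698 to 231. Blk had 1 and 12 counts, with an interval from 1.16 to 334. Cxcr5 had 4 and 3 counts and Spib 3 and 2, ratios of 0.488 and 0.434 with intervals from 0.0715 to 2.89 and from 0.0363 to 3.79.

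In the list of B cell receptor signalling genes, 21 of 23 were tested, 6 were lower, none was higher and the median was −0.37. The lower genes were Ptprc (CD45) at −1.06, Syk at −0.83, Vav1 at −0.78, Ptpn6 at −0.38, Grb2 at −0.37 and Cd81 at −0.21. All of them work in other cells too: Ptprc and Vav1 in white blood cells of many kinds, Syk and Ptpn6 in macrophages, and Grb2 and Cd81 in most tissues. Ptprc fell from 9.95 ± 1.40 to 4.72 ± 1.31 CPM (SD over libraries, adjusted p = 5.60e-04 with edgeR). The count of 6 went to 2 without DIO replicate 5 or DIO + DHA replicate 4 and to 3 without DIO + DHA replicate 6, while Ptprc passed when any library was left out. Pik3ap1, an adaptor of B cells and macrophages, had a log2 fold change of −0.33 (adjusted p = 0.0889).

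In the plasma cell list of 16 genes, 8 were tested, 1 was lower, none was higher and the median was 0.10. The lower gene was Tmem176b, at −0.53 (adjusted p = 1.60e-08 with edgeR), which macrophages and dendritic cells also express. Sdc1, the plasma cell marker CD138, is also made by hepatocytes. Its levels were 143 ± 13.7 and 141 ± 9.19 CPM. Cd38, which plasma cells carry among others, had a log2 fold change of −0.50 (adjusted p = 0.150). Markers that hepatocytes lack were close to 0, with 1 and 7 counts for Tnfrsf17 (BCMA), 10 and 5 for Prdm1 and 3 and 4 for Irf4. Without DIO replicate 4, the list had 2 lower genes and 1 higher gene, and without DIO + DHA replicate 6 it had 1 higher gene. In the secretory pathway list of 24 genes, which plasma cells share with hepatocytes, all were tested, 2 were lower, 7 were higher and the median was 0.13. Hspa5 (BiP) rose from 624 ± 67.7 to 843 ± 84.6 CPM and Hsp90b1 from 431 ± 13.6 to 586 ± 16.5 CPM, log2 fold changes of 0.43 and 0.45, and Manf rose by 0.60. Herpud1, at −0.62, and Xbp1, the transcription factor of secretory cells, at −0.36, were lower.

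Genes that bind or carry antibody followed. Of 11 genes, 10 were tested, 4 were lower, none was higher and the median was −0.24. The 4 encode activating Fc gamma receptors, which bind IgG on macrophages, and their signalling chain. Fcgr3 stood at 21.9, 23.3 and 26.3 CPM in the DIO libraries. In the DIO + DHA libraries it stood at 7.74, 8.71, 7.85, 8.20 and 11.6 CPM. The groups did not overlap, with a log2 fold change of −1.44, an interval from −1.77 to −1.12 and an adjusted p of 2.11e-10 with edgeR. Fcgr4, a receptor for IgG2a, IgG2c and IgG2b, ranged from 18.6 to 19.7 CPM in the DIO group and from 7.37 to 12.5 CPM in the DIO + DHA group, and changed by −0.94 on the log2 scale (adjusted p = 3.22e-05). Fcgr1, the high-affinity receptor, was lower at −1.03 (adjusted p = 0.0119 with edgeR, 0.0569 with DESeq2), and Fcer1g, the chain that these receptors share, at −0.73 (adjusted p = 4.37e-07).

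**Figure D4:**
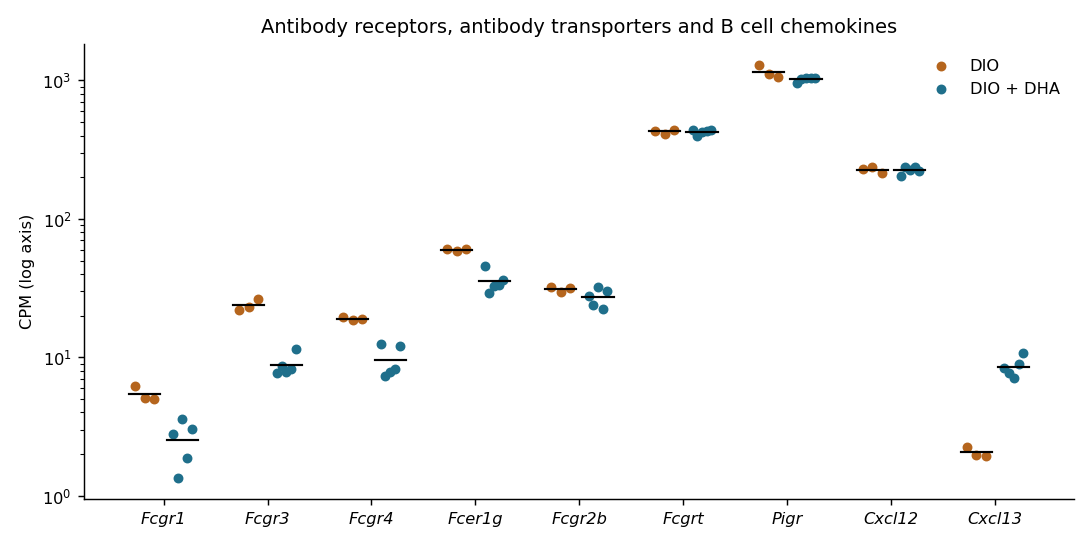
Level, in CPM on a log axis, of antibody receptors (Fcgr1, Fcgr3, Fcgr4, Fcer1g, Fcgr2b), antibody transporters (Fcgrt, Pigr) and chemokines (Cxcl12, Cxcl13) in each library, with group means as lines. Fcgr3 falls from between 21.9 and 26.3 CPM to between 7.74 and 11.6 CPM, and Cxcl13 rises from about 2 CPM to between 7.14 and 10.7 CPM, whereas Fcgrt and Cxcl12 overlap between the groups.

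The inhibitory and transporting receptors did not pass the test. Fcgr2b, the inhibitory IgG receptor, which liver endothelium also carries, had a log2 fold change of −0.19 (adjusted p = 0.387 with edgeR). Fcgrt, the heavy chain of the neonatal Fc receptor, which recycles IgG, stood at 428 ± 15.2 and 426 ± 17.4 CPM. Its change on the log2 scale was −0.01, with an interval from −0.14 to 0.13. Pigr, which carries polymeric IgA and IgM across epithelia, had 1159 ± 126 and 1021 ± 36.4 CPM, a log2 fold change of −0.18 and an adjusted p of 0.0507. Its highest DIO + DHA library was below its lowest DIO library. Asgr1, a receptor that clears desialylated glycoproteins, was at 943 ± 25.7 and 967 ± 44.3 CPM.

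In the list of signals that attract or sustain B and plasma cells, 8 of 20 genes were tested, none was lower, 2 were higher and the median was −0.03. Cxcl13, the chemokine that guides B cells into follicles, stood at 2.25, 1.98 and 1.95 CPM in the DIO libraries. In the DIO + DHA libraries it stood at 8.33, 7.71, 7.14, 8.90 and 10.7 CPM. The groups did not overlap, with a log2 fold change of 2.10, an interval from 1.53 to 2.67 and an adjusted p of 4.42e-08 with edgeR. Ccl21a, a chemokine for lymphocytes entering lymphoid tissue, had 2 counts in the DIO group and 33 in the DIO + DHA group. The depth-scaled ratio was 10.7, with a counting interval from 2.75 to 92.4. Ccl21a passed the filter on low counts only through the DIO + DHA group. Its call as higher was thus partly fixed by the filter, and nothing is drawn from it. It has near-identical copies that make its count uncertain. Cxcl12, which holds plasma cells in their niche, was at 227 ± 12.7 and 225 ± 13.9 CPM. The homing genes S1pr1 and Itga4 had log2 fold changes of −0.08 and −0.51 (adjusted p = 0.794 and 0.156). Of the survival factors, Tnfsf13b (BAFF) had 9 counts in each group, a depth-scaled ratio of 0.651 with a counting interval from 0.229 to 1.85. Tnfsf13 (APRIL), Il6 and Il21 had no count. Whether their exons overlap other genes, where reads were not counted, was not examined, so this cannot be read as absence. The cytokine gene Il10 had 7 and 2 counts, a depth-scaled ratio of 0.186 with a counting interval from 0.0189 to 0.977.

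Genes of other cell types and tissues in the liver piece were counted in the same fit. In the Kupffer cell and macrophage list, 13 of 19 tested genes were lower and 1 was higher, and the 20 genes summed to 917 to 1018 CPM in the DIO libraries and 544 to 574 CPM in the DIO + DHA libraries. In the T cell list, 6 of 14 tested genes were lower and none higher, with sums of 136 to 152 CPM and 56.4 to 63.9 CPM. Ccl5 alone held 103 ± 8.95 and 33.0 ± 1.83 CPM of these sums. In the natural killer cell list 4 of 6 tested genes were lower. The members' sum overlapped between the groups, at 223 to 268 CPM and 216 to 249 CPM. Most of it came from Igkc (means of 129 and 125 CPM) and Ighm (67.1 and 66.5 CPM). A difference between the lists was not tested. MHC class II genes, which B cells share with macrophages and dendritic cells, were lower in 6 of 8 tested, with a median of −1.24, among them H2-Ab1 at −1.24 and H2-Aa at −1.34. In these lists the genes of highest level were C1qb (−1.03) and Lyz2 (−0.72) of macrophages, Ccl5 (−1.64) and Cd3g (−0.87) of T cells, and Nkg7 (−1.63) and Ccl4 (−2.95) of natural killer cells, in log2 fold change. Some genes called lower passed the count filter only through the DIO group. They include Ccl4 (means of 5.17 and 0.663 CPM), Gzmb (2.80 and 0.626), Gzmk (2.12 and 0.372) and Itgax (1.69 and 0.438). The counts of lower genes were thus partly fixed by the filter. Of genes foreign to liver, all 17 of a skeletal muscle list were higher, with sums of 38.3 to 44.4 CPM and 1397 to 1522 CPM. Its genes of highest mean CPM, Acta1 and Tnnt3, were at 5.53 and 5.33 in log2 fold change. Of 12 squamous epithelium genes 7 were tested, and these were all higher. Perp, which the DIO livers also held, was at 158 ± 7.34 against 190 ± 6.89 CPM. Krt4 was at 0.0601 ± 0.104 against 25.2 ± 3.40 CPM. Krt13 was at 0 CPM in each DIO library and at 15.8 CPM ± 1.92 (SD, n = 5) with DIO + DHA. Genes at or near 0 CPM in the DIO group passed the count filter only through the DIO + DHA group. The counts of higher genes in these lists were therefore partly fixed by the filter. In a list of lymphoid stroma and blood genes, 1 of 6 tested was lower (Lyve1, at −1.08) and 2 were higher. These were Cxcl13 and Ccl21a, the latter with the limit of the filter given above. The red cell genes Hba-a1 and Hbb-bt both had −0.15. The dendritic cell list had 2 of 7 tested genes higher, Cox6a2 and Ly6d, of which Cox6a2 is also a muscle gene, while Bst2 was at −0.05. Of a germinal centre and cell cycle list none of 6 tested genes passed, with Fas at −0.11 and Bcl6 at 0.28, and of 12 hepatocyte genes 3 were lower and 1 higher, with Alb at 0.12 and Ttr at −0.02. The part of these cells and tissues in the results for Ighg2b, the Fc receptors, Cxcl13 and Ccl21a was not tested.

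**Figure D5:**
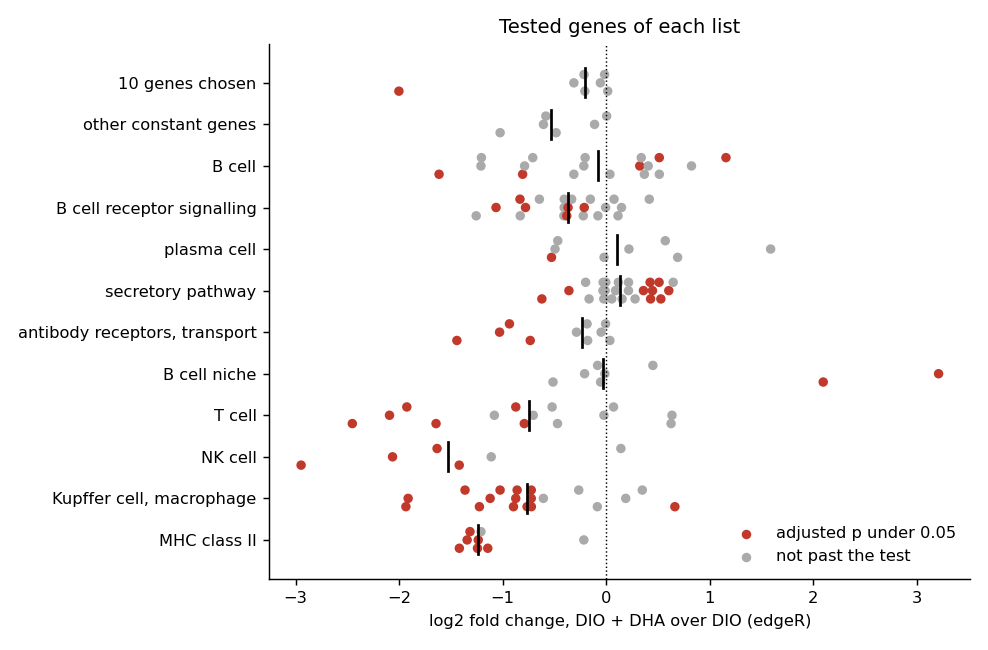
Log2 fold change of DIO + DHA over DIO for every tested gene of 12 lists, with 1 point for each gene and a line at each list's median. Red points passed an adjusted p under 0.05 with edgeR. The immunoglobulin genes have 1 red point, Ighg2b at −2.00, while most genes of the macrophage and MHC class II lists are red and negative.

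The genes whose levels followed the members most closely over the 8 libraries were described by Pearson's r with the members' mean standardised level. With the group means kept, they were Ctsd (r = 0.96), Vac14, Mvb12a, Spns1 and Ifit3, the highest of 12399 genes compared. With the group means removed, they were B4galnt1, Gba2, Hs3st6, Serpine2 and Prdm10. The points share depth and, in the first case, the diet groups.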

How the data were processed

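The values were deposited read counts per gene, which the authors made from 3′-enriched, poly(A)-primed libraries by trimming, alignment with STAR 2.7.9a to GRCm39 and featureCounts 1.6.0 on GENCODE vM33. Strand was not used, and reads in several genes were dropped; collapse of molecular identifiers was not given in the sources used here. Genes were named from GENCODE vM39, which named 56323 of the 56884 identifiers, and sequences were read from GRCm39. The members and lists were chosen with earlier results of these data known.

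Genes that more than 50% of both groups' libraries held at under 5 counts were left out, following the study. The test was edgeR 4.0.16 (quasi-likelihood, TMM, robust) in R 4.3.3, with Benjamini-Hochberg adjustment over all genes and a threshold of 0.05, and limma 3.58.1 and DESeq2 1.42.0 as alternatives. Sums and ratios were tested by exact permutation, with 0.5 CPM or 0.5 counts added before logs. Floors are 3 counts, and intervals at 95%, except those of fold changes, cover counting error only. The scripts were tested on simulated data.

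Genes named were the members, all other constant genes, from each list the 3 tested genes of highest mean CPM and the 3 of lowest p among those called, from lists of other cell types the 2 of highest mean CPM, the 5 most similar genes and the commonest variable segments. Ebf1, Ptpn6, Syk, Xbp1, Fcgr1, Fcgr2b, Krt13, Lyve1, Cox6a2, Gzmk, Itgax, Gzmb, the low-count markers and the untested cytokines were named after their values were seen. No replicate pair agreed within sampling noise (chi-square per gene at least 1.93).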

Additional observations from a re-analysis of the deposited data

Results flagged for a closer look

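Of 27 groups of 5 libraries checked among the levels, shares and sums, 2 had a library apart from the rest, and chance flags about 1 in 20. In DIO + DHA replicate 6, Igha stood at 14.4 CPM, while the other libraries of its group lay between 19.4 and 20.3 CPM. In the same library IgA made up 15.1% of heavy chain counts, against 19.4% to 20.96% in the others of its group. Both values come from the same 66 counts of Igha.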

How the results depend on the processing

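Ighg2b stayed lower and past the test under every alternative run, with log2 fold changes from −2.15 to −1.80, and it was the 1 member past the test in each. The other tested members and constant genes stayed short of the threshold, except Iglc1 without DIO replicate 1. Several changed sign near 0: Iglc2 was at −0.0015 and Ighd at −0.011 with library size alone, Ighd at −0.11 with limma-voom. Leaving out 1 library at a time moved the log2 fold change of Igkc from −0.108 to 0.0196, Iglc2 from −0.10 to 0.23, Ighm from −0.0336 to 0.0138, Igha from −0.33 to 0.0602, Cd79b from −0.43 to 0.11, Ighd from −0.39 to 0.29 and Iglc3 from −0.27 to 0.0237, while Ighg1 ranged from −0.97 to −0.23, Ighg2c from −0.65 to −0.26, Ighg3 from −1.25 to −0.32 and Iglc1 from −0.76 to −0.27. The cause was not tested.

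Counts of list genes depended on the test. The DESeq2 Wald test left 1 lower and 0 higher in the B cell list and 1 lower in the receptor signalling list, which had 3 lower with no filter. The antibody receptor list had 3 to 5 genes lower over the alternatives, and Fcgr1 lost its call with the DESeq2 Wald test and the replicate block. The filter of edgeR's filterByExpr left 1 higher in the list of B cell signals, since Ccl21a was then not tested. Over libraries left out, the B cell list had 1 to 4 genes lower and 0 to 2 higher, the receptor signalling list 2 to 5 lower, the plasma cell list 1 to 2 lower and 0 to 1 higher, and the list of B cell signals 0 to 1 lower (1 without DIO replicate 5). All genes past the test numbered between 1317 (DESeq2) and 1894.

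Leaving out libraries took the difference in log2 ratio from 0.48 to 0.88 for IgM, from −0.00547 to 0.37 for kappa to lambda, from −0.43 to 0.0226 for Jchain to constant genes and from −1.18 to −0.0480 for constant to B cell surface genes. The same range was −0.24 to −0.0939 for summed constant genes on the log2 scale, −0.23 to −0.0884 with variable segments added, 0.28 to 0.58 for the number of variable segments seen and −0.22 to −0.0737 for the share of the commonest. Adding 5 counts gave −0.32 for constant to B cell surface genes (exact permutation p = 0.0357).

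The replicate numbers that the groups share (1, 4 and 5) did not pair the samples: correlations of their deviations were −0.00, −0.02 and −0.05. With the replicate block, 0 genes were higher in the B cell list, 3 lower in the receptor signalling list and 2 lower in the plasma cell list, Iglc3 was at 0.19, Ighg1 at −1.12, Ighd at 0.59, Igha at −0.0512 and Cd79b at −0.0345, and the log2 ratios of IgM and IgG differed by 0.53 and −1.35, each with an exact permutation p of 0.25, the smallest that 3 pairs allow. With Igkc and Ighm the depth bounds a change closely, whereas for Cd79a, Ms4a1, Mzb1 and single variable segments it does not.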
